A study of Mus musculus with 5 samples.

Results

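Mesenchymal homeobox genes of the Msx, Prrx and Meox families, the odd-skipped genes Osr1 and Osr2 and the zinc finger gene Mecom were followed in the atrioventricular canal (AVC) of the mouse heart with and without Sox9. The set comprises 9 named genes. Rows of the expression table with those symbols were taken, which gave 9 transcripts of 8 genes among 14697 transcripts in all, with 2 rows for Mecom and 1 for each of the others. Osr2 was not analysed here. The genes were chosen by name with their WT and cKO nFPKM values known, so these values count as selected on, and every difference between the genotypes below is a description with no test.

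RNA was sequenced from C57BL/6 AVCs dissected at embryonic day 12.5, and the labels describe the tissue as mesenchyme, endothelium and myocardium together. The control group, called WT by the labels, had the genotype Sox9fl/fl:+/+, with both Sox9 alleles floxed and no Cre. The mutant group, called Sox9 cKO, had the genotype Sox9fl/fl:Tie2-Cre/+. Floxed alleles were thus shared, and the groups differed in the presence of Cre. Tie2-Cre acts in endothelial cells and their descendants, among them the cushion mesenchyme derived from endocardium, and in blood cells. It does not act in myocardium or epicardium, which still carry the floxed alleles unrecombined. AVCs of several embryos were pooled after the level of Sox9 deletion had been checked. The labels state 2 libraries per genotype, and the table holds 1 merged value for each, so the spread between libraries is unknown and no p-value was possible. SOX9 ChIP-seq peak lists of AVC and limb were not used here, since they are placed on another genome build than the gene positions at hand.

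The endocardial cushions of the AVC are filled with mesenchyme that arises when endocardial cells lose their epithelial character and move into the matrix, and this mesenchyme later forms the valves. Msx1 and Msx2 are homeodomain repressors that respond to BMP signals and act in part redundantly in the cushions. Prrx1 and Prrx2 are paired-related homeodomain factors of limb, facial and cushion mesenchyme. Meox1 and Meox2 are homeodomain factors best known from the somites, and Meox2 also from vascular cells. Osr1 and Osr2 are zinc finger factors, Osr1 of the intermediate mesoderm and the atrial septum and Osr2 of the palate and limb. Mecom (also Evi1 or Prdm3) is a zinc finger factor known from blood stem cells and required for normal heart development.

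Sox9, the targeted gene, stood at 36.7 nFPKM in WT and 14.7 nFPKM in cKO, which is 39.9% of the WT value. FPKM counts sequenced fragments per kilobase of a transcript and per unit of sequencing depth, and nFPKM is the authors' further normalized form. Because FPKM is per length, levels are set side by side between genes here. This assumes that the further normalization, whose steps are not stated, keeps genes comparable. Ratios are given as the log2 of cKO over WT after adding 1 nFPKM to each value, relative to the median of -0.11 over the 13793 transcripts that reached 1 nFPKM in WT or cKO. Sox9 had a relative log2 ratio of -1.16. All 8 genes were among these transcripts, Meox2 through its cKO value alone.

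In WT the 8 genes spanned a 62.4-fold range of level. Prrx2 was the highest at 59.2 nFPKM, followed by Mecom at 50.6 and Meox1 at 49.5 nFPKM. Prrx1 stood at 21.4, Msx1 at 20.0, Msx2 at 14.5 and Osr1 at 7.07 nFPKM. Meox2 was the lowest at 0.95 nFPKM, under the 1 nFPKM that a transcript had to reach in 1 genotype. Some steps in this order were small, with Prrx2 1.17-fold above Mecom, Mecom 1.02-fold above Meox1 and Prrx1 1.07-fold above Msx1, and without a spread between libraries these neighbours cannot be ranked. In cKO the order was Prrx2, Mecom, Meox1, Msx2, Prrx1, Msx1, Osr1 and Meox2. Msx2 had moved from the sixth place to the fourth, ahead of Prrx1 and Msx1.

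**Figure D1:**
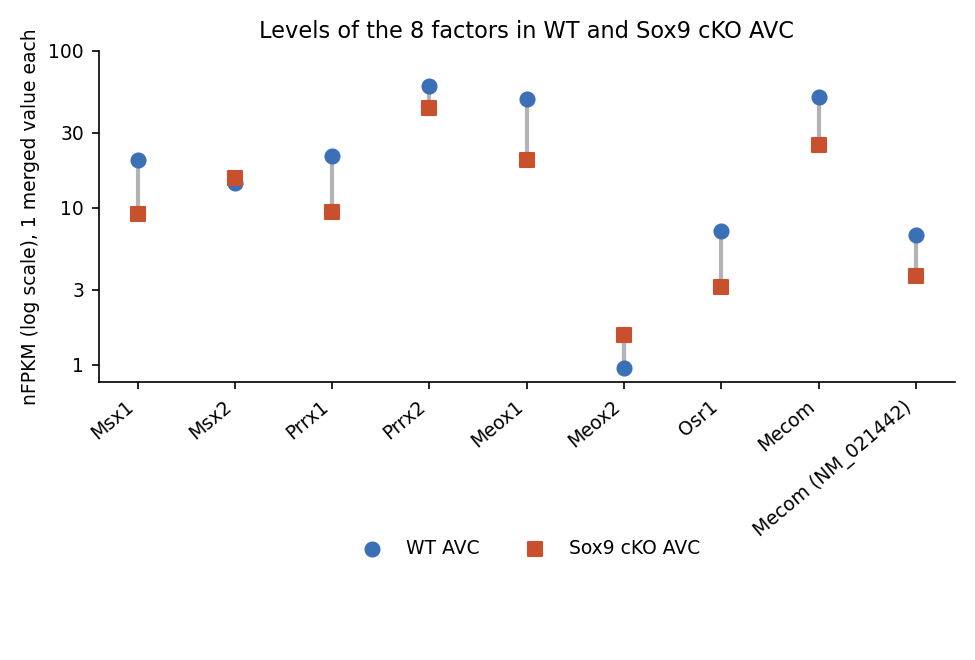
Level of each transcript in nFPKM on a log axis, with WT as circles and Sox9 cKO as squares and a grey line joining the 2 merged values of a transcript. The cKO value lies well under the WT value for Msx1, Prrx1, Meox1, Osr1 and both Mecom rows, a little under it for Prrx2, and above it for Msx2 and Meox2.

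Meox1, Prrx1, Msx1, Osr1 and the main row of Mecom had between 40.9% and 50.0% of their WT value in cKO, and both Mecom rows summed had 50.6%. Prrx2 kept 73.2%, and Msx2 and Meox2 stood above their WT values. Relative to the median of all transcripts, 5 of the 8 were at least 1.5-fold lower in cKO, against 2.82% of all transcripts, and 1 was at least 2-fold lower, against 0.674%. Of the valve mesenchyme markers listed below, 8 of 16 were at least 1.5-fold lower too. None was at least 1.5-fold higher, against 3.44%, or at least 2-fold higher, against 0.834%. Without the centring, 3 genes (Meox1, Prrx1 and Msx1) were at least 2-fold lower, against 0.979% of all transcripts. Prrx1 and Msx1 lie at the boundary of that rule. Osr1 and Mecom, at 44.3% and 50.0% of WT, stood at -0.97 each, short of 2-fold only because 1 nFPKM was added. The 1.5-fold size was met by 5 genes without the centring, against 4.52%. The share of transcripts at least 1.5-fold lower varied with level. It was 6.40% at 1 to 3 nFPKM (the range of Meox2), 5.76% at 3 to 10 (Osr1), 2.57% at 10 to 30 (Msx1, Msx2 and Prrx1) and 0.846% at 30 to 100 nFPKM (Prrx2, Meox1 and Mecom), by the higher of both values. The summed level of the 8 genes was 223 nFPKM in WT and 128 nFPKM in cKO, or 57.2%.

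**Figure D2:**
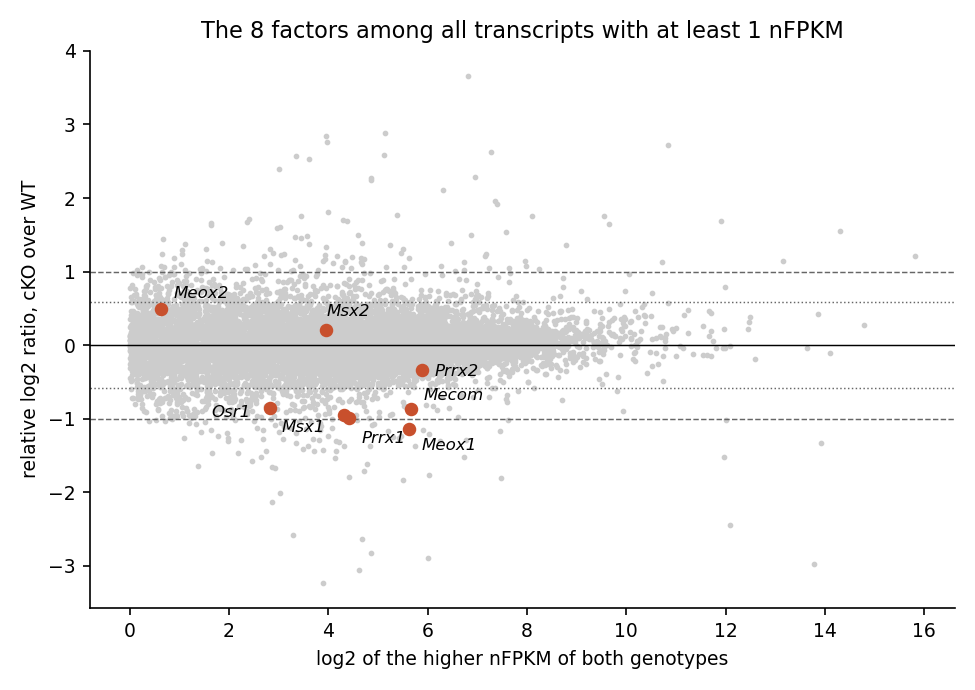
Relative log2 ratio of cKO over WT against the log2 of the higher of both nFPKM values, for all transcripts with at least 1 nFPKM (grey) and the 8 genes (red), with dotted lines at 1.5-fold and dashed lines at 2-fold. Meox1, Prrx1, Msx1, Mecom and Osr1 lie at -1.14 to -0.86, while Prrx2, Msx2 and Meox2 lie at -0.34, 0.20 and 0.49.

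Msx1 stood at 20.0 nFPKM in WT and 9.10 nFPKM in cKO, a relative log2 ratio of -0.95. Its paralogue Msx2 stood at 14.5 and 15.5 nFPKM, a relative log2 ratio of 0.20. Msx1 was thus the higher of the pair in WT and the lower in cKO. The ratio of Msx1 to Msx2 was 1.38 in WT and 0.59 in cKO, and the share of Msx1 in the summed level of the pair went from 58.0% to 37.0%. The summed level of both was 34.5 nFPKM in WT and 24.6 nFPKM in cKO (71.4%). The difference between the log2 ratios of Msx1 and Msx2 was -1.15, a quantity that the centring on all transcripts leaves as it is. Of the 3926 transcripts whose higher value was between 10 and 30 nFPKM, 37 had a lower ratio than Msx1, and the middle 90% of them ran from -0.45 to 0.45.

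The sequence upstream of the Msx genes is shown because the genes of this pair, at similar levels in WT, changed order in cKO. It comes from RefSeq on build GRCm38.p6, not on mm9, the build named for the expression data, and covers the 250 bases before the annotated start. Msx1 lies on chromosome 5 (chr5:37824586-37824835, minus strand) and Msx2 on chromosome 13 (chr13:53472781-53473030, minus strand). Both are printed 5′ to 3′ on the strand of the gene, with capitals for the CCAAT box and for the core TAAT that many homeodomain proteins bind, on either strand.
Msx1: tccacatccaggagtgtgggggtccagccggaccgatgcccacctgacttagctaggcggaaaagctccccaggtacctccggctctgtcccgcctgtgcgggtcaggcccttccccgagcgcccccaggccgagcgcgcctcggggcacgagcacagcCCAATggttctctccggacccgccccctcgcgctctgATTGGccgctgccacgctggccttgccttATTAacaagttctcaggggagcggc
Msx2: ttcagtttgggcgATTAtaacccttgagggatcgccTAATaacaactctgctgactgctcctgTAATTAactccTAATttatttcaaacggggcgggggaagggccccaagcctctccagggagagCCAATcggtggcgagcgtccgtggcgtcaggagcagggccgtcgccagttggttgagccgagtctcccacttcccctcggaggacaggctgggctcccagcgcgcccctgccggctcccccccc

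The Msx1 stretch held 2 CCAAT boxes, beginning 91 and 54 bases before the start, and 1 TAAT core, 25 bases before it. In the Msx2 stretch, 1 CCAAT box began 124 bases before the start and 5 TAAT cores lay between 237 and 176 bases before it, of which 2 overlap in 1 palindrome. Of all 32851 RefSeq promoter stretches of this length, 33.8% held a CCAAT box and 54.9% a TAAT core, and 5.54% held at least 5 TAAT cores. The SOX motif ACAAAG, held by 16.5% of all stretches, and its variants ACAATG, held by 10.7%, and AACAAT, held by 9.42%, were searched on both strands as well. None of these motifs was in the 7 stretches found for 6 of the genes (Msx1, Msx2, Prrx1, Prrx2, Meox2 and both starts of Mecom), while 29.6% of all stretches held at least 1. This describes the letters of these short windows and says nothing of binding elsewhere.

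Prrx1 stood at 21.4 nFPKM in WT and 9.46 nFPKM in cKO, a relative log2 ratio of -0.99. Prrx2 stood at 59.2 and 43.4 nFPKM, a relative log2 ratio of -0.34. Both were lower in cKO, Prrx1 by more, with a difference between the log2 ratios of -0.66. Prrx2 was the higher of the pair in both genotypes, by 2.77-fold in WT and 4.59-fold in cKO, and the share of Prrx1 went from 26.5% to 17.9%. Their summed level was 80.6 nFPKM in WT and 52.8 nFPKM in cKO (65.5%). Of the 4376 transcripts at 30 to 100 nFPKM, 197 had a lower ratio than Prrx2, or 4.50%, so its value lies just outside the middle 90% of that range, which ran from -0.33 to 0.38. Of the transcripts at 10 to 30 nFPKM, 33 had a lower ratio than Prrx1.

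Meox1 stood at 49.5 nFPKM in WT and 20.2 nFPKM in cKO, a relative log2 ratio of -1.14, the lowest of the 8 genes. Meox2 stood at 0.95 and 1.55 nFPKM, a relative log2 ratio of 0.49. The pair was almost all Meox1 in both genotypes, with a share of 98.1% in WT and 92.9% in cKO. The summed level was 50.4 nFPKM in WT and 21.8 nFPKM in cKO (43.2%). Among transcripts at 30 to 100 nFPKM, 11 of 4376 had a lower ratio than Meox1. Among the 1640 transcripts at 1 to 3 nFPKM, to which Meox2 belongs, the middle 90% ran from -0.66 to 0.70, and Meox2 lies within it. The difference of -1.64 between Meox1 and Meox2 was the widest of the 3 pairs and rests on the low values of Meox2.

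**Figure D3:**
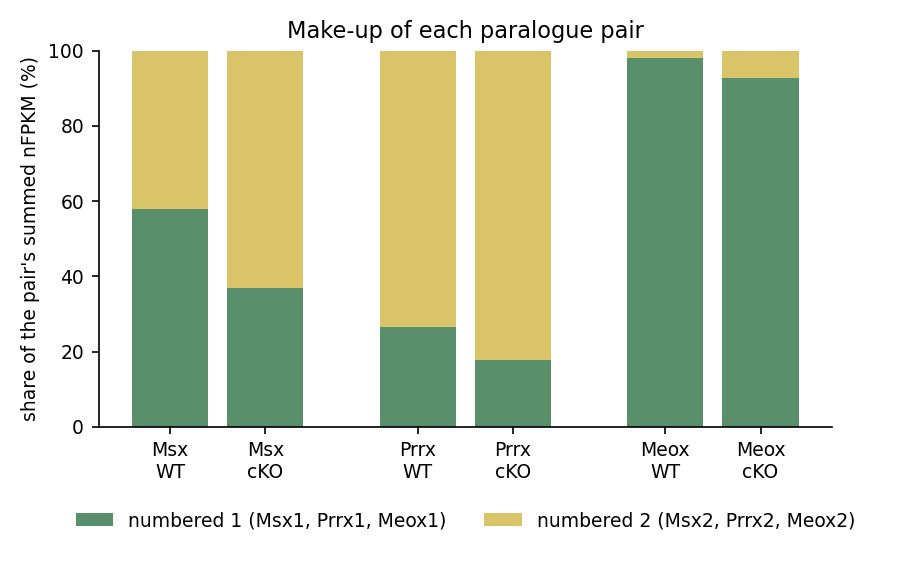
Share of each paralogue in the summed nFPKM of its pair, in percent, for WT and cKO. The share of the first paralogue was lower in cKO in each pair, at 37.0% against 58.0% for Msx1, 17.9% against 26.5% for Prrx1 and 92.9% against 98.1% for Meox1.

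In all 3 pairs the first paralogue had the lower ratio, though Meox2 was under 1 nFPKM in WT. For comparison, 63 pairs of genes with the same name stem were formed from the other homeobox, mesenchymal and valve transcription factors listed below. A shared stem does not make a pair as close as Msx1 and Msx2, so the counts give no rate for paralogue pairs. These pairs draw on 56 genes and share many of them, and they were formed after the values had been seen. The median absolute difference between their log2 ratios was 0.42 and the widest was 1.28. A difference as wide as that of the Prrx pair occurred in 13 of the 63, and one as wide as that of the Msx pair in 3. The 3 were Irx4 and Irx6 (1.28), Irx2 and Irx6 (1.24) and Sox11 and Sox5 (1.16). No listed pair differed by as much as Meox1 and Meox2, but Meox2 passed the filter through its cKO value alone. The Meox difference was -1.25 with a pseudocount of 5 nFPKM, at which the listed pairs were not recomputed. Twist1 and Twist2, at relative log2 ratios of -1.30 and -0.21 and named after their values were seen, differed by 1.09.

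Osr1 stood at 7.07 nFPKM in WT and 3.14 nFPKM in cKO, 44.3% of the WT value. Its relative log2 ratio was -0.86, and since its cKO level is only a few times the pseudocount, this understates the difference. With a pseudocount of 5 nFPKM the ratio was -0.49, no longer 1.5-fold lower. Of the 2135 transcripts at 3 to 10 nFPKM, 46 had a lower ratio (2.15%), and the middle 90% ran from -0.63 to 0.60.

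Mecom had 2 rows. The main transcript (NM_007963) stood at 50.6 nFPKM in WT and 25.3 nFPKM in cKO, a relative log2 ratio of -0.87. The second (NM_021442) stood at 6.66 and 3.70 nFPKM, a relative log2 ratio of -0.60. Both were lower in cKO, and the main transcript made up 88.4% of their sum in WT and 87.2% in cKO, so the make-up of Mecom by transcript was nearly the same in both. How reads of exons shared by both transcripts were divided is not stated, so the split is less certain than the sum of 57.3 nFPKM in WT and 29.0 nFPKM in cKO. Of the transcripts at 30 to 100 nFPKM, 19 of 4376 had a lower ratio than the main transcript. Prdm16, the closest relative of Mecom, stood at 10.2 and 12.4 nFPKM, a relative log2 ratio of 0.37.

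Set against Sox9, Meox1, Prrx1, Msx1, Mecom and Osr1 had slightly higher ratios than the deleted gene itself. The relative log2 ratio of Meox1 exceeded that of Sox9 by 0.02, that of Prrx1 by 0.17, that of Msx1 by 0.21 and those of Mecom and Osr1 by 0.30 each. Without a spread between libraries, these genes cannot be ranked against Sox9. In WT, Meox1 stood at 1.35 times and Mecom at 1.38 times the level of Sox9, and in cKO at 1.38 and 1.73 times. Msx1 stood at 0.55 times the level of Sox9 in WT and 0.62 times in cKO.

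The other homeobox genes were centred near the median of all transcripts. Of 101 listed genes, 60 had a row and 51 passed the filter. Their median relative log2 ratio was 0.01 (-0.10 without centring, where the median of all transcripts was -0.11), with 25 below and 26 above the median of all transcripts. At least 1.5-fold lower were 3 of them (5.88%), against 2.82% of all transcripts. At least 1.5-fold higher were 5, against 3.44%. Shox2, a factor of the sinus node and limb, stood at 17.5 nFPKM in WT and 4.92 nFPKM in cKO (relative log2 ratio -1.54). In the other direction, Irx6 stood at 3.26 and 8.28 nFPKM (1.23) and Lmx1a at 3.05 and 7.07 nFPKM (1.10). Among all 57 ranked homeobox genes, the 6 Msx, Prrx and Meox genes included, Meox1, Prrx1 and Msx1 had the third, the fourth and the fifth lowest ratio. The order among close neighbours is uncertain, since the spread between libraries is unknown. By level in WT, Prrx2 ranked 10 and Meox1 ranked 12 of the 57, in a list led by Hopx at 260 nFPKM (named after its value was seen).

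Most other transcription factors of the cushion mesenchyme and valves lay below the median of all transcripts. Of 36 listed genes, with the 8 and Sox9 left out, 33 passed the filter, 23 of them lay below the median of all transcripts, and their median relative log2 ratio was -0.24. At least 1.5-fold lower were 8 of the 33 (24.2%), against 2.82% of all transcripts. At least 1.5-fold higher was 1, against 3.44%. Scx (scleraxis), known from tendon precursors, was at 11.3 and 3.29 nFPKM (-1.41). Twist1, which drives cushion mesenchyme, stood at 75.7 and 27.9 nFPKM (-1.30), Sox5 at 10.2 and 3.55 nFPKM (-1.20) and Tcf15, a somite factor, at 5.54 and 2.25 nFPKM (-0.90). The list was drawn up with results of these libraries known and is not independent evidence of a direction.

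Lists of genes that act with Msx genes, Mecom and Osr1 had medians near that of all transcripts, and no such list was made for Prrx and Meox genes. Of 24 BMP pathway genes that passed the filter, 13 lay below and 11 above the median, and their median was -0.02. At least 1.5-fold lower were 3 of the 24 (12.5%), against 2.82% of all transcripts. At least 1.5-fold higher was 1, against 3.44%. This list mixes ligands, antagonists, receptors, Smads and response genes, so its median does not describe the response genes alone. Id4, a BMP response gene, stood at 11.1 nFPKM in WT and 5.68 nFPKM in cKO (-0.76). The other Id genes, named after their values were seen, were lower too, with Id2 at -0.58, Id1 at -0.51 and Id3 at -0.50. The ligand Bmp2 stood at 37.8 and 22.1 nFPKM (-0.64) and the BMP antagonist Nog at 3.28 and 1.57 nFPKM (-0.63). Bmp10, a ligand of trabecular myocardium, stood at 65.8 and 145 nFPKM (1.23). Among 18 genes of the PRDM family and of the co-repressors that bind Mecom, none was 1.5-fold lower or higher. Of all transcripts, 2.82% were lower and 3.44% higher by that size. The median of the 18 was -0.02. The co-repressor Ctbp1 had the lowest value, at 173 and 134 nFPKM (-0.26). Of the 9 genes known to act with Osr1 that passed the filter, none was 1.5-fold lower, against 2.82% of all transcripts. At least 1.5-fold higher were 2 of the 9, against 3.44%. Wt1, at 14.5 and 23.4 nFPKM (0.76), and Sall1, at 12.6 and 18.4 nFPKM (0.62), stood highest, and Wt1 is also an epicardial marker. The median of that list was -0.02 and 0.06 with a floor of 3 nFPKM, so it has no stable sign.

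**Figure D4:**
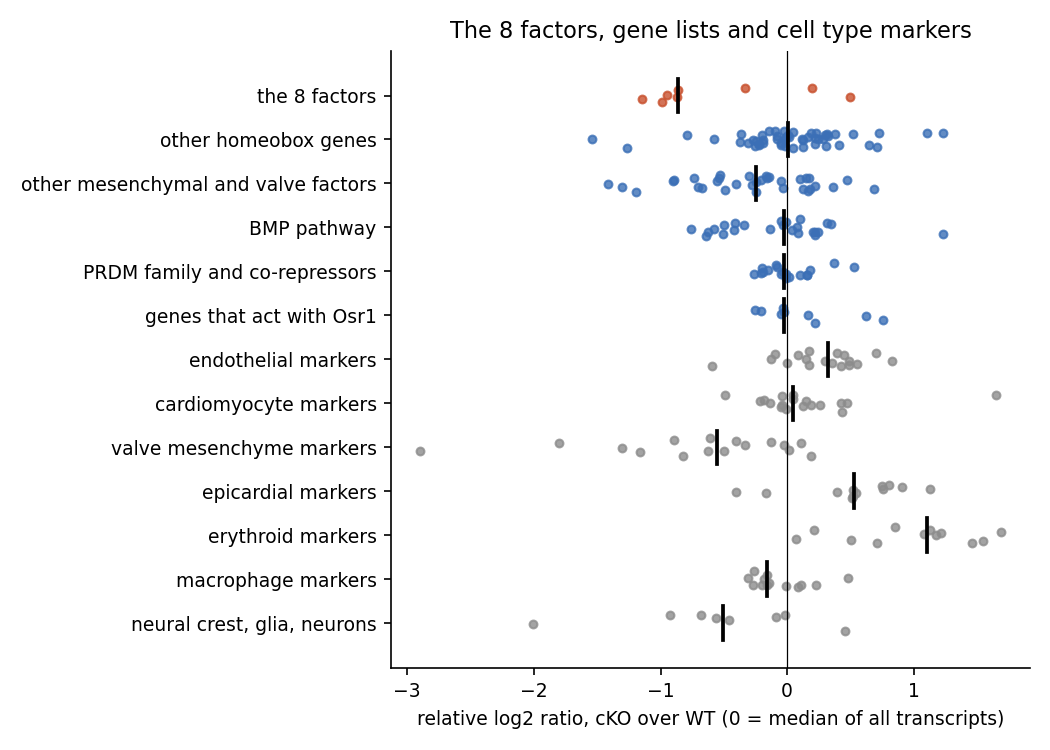
Relative log2 ratio of cKO over WT for each gene (points) of the 8 factors (red), the 5 gene lists (blue) and the 7 cell type marker lists (grey), with the median of each as a black bar. The 8 factors have a median of -0.86, the other homeobox genes of 0.01, the valve mesenchyme markers of -0.55 and the erythroid markers of 1.10.

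Markers of the cell types in the dissected tissue differed between the pools in the same values. Valve mesenchyme markers had a median relative log2 ratio of -0.55, with 13 of 16 below the median of all transcripts. At least 1.5-fold lower were 8 of the 16 (50%), against 2.82% of all transcripts. Without the transcription factors it was 6 of 13 (46.2%). None of the 16 was at least 1.5-fold higher, against 3.44%. Their summed level was 6167 nFPKM in WT and 4767 nFPKM in cKO (77.3%). Papss2 (-2.90), Lum (-1.80), Twist1 and Sox9 stood lowest, while Vim (0.19), named after its value was seen, stood above the median. Endothelial markers had a median of 0.32 (14 of 18 above, sum 1487 and 1689 nFPKM) and cardiomyocyte markers of 0.05 (10 of 18 above, sum 56117 and 56618 nFPKM), which is -0.06 without centring. Epicardial markers had a median of 0.53 (10 of 12 above, sum 393 and 507 nFPKM) and erythroid markers of 1.10 (12 of 12 above, sum 36696 and 84150 nFPKM). Macrophage markers had a median of -0.16 (4 of 13 above, sum 218 and 185 nFPKM) and those of neural crest, glia and neurons of -0.51 (1 of 8 above, sum 57.5 and 34.1 nFPKM). No transcript was at 0 in either genotype, so this held for every marker with a row. Rows were found for 8 of 10 listed markers of neural crest, glia and neurons, 12 of 13 erythroid and 13 of 14 macrophage markers. Fewer mesenchymal cells in the pool and less RNA of these factors per cell cannot be told apart in bulk tissue, and the part of the marker differences in the values of the 8 factors was not tested.

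Set against the median of the mesenchyme markers instead of all transcripts, every ratio rises by the same amount, so the lower values are smaller by arithmetic. The median of the 13 mesenchyme markers that are no transcription factors was -0.50, with single markers from -2.90 to 0.19. Relative to it, Meox1 stood at -0.65, Prrx1 at -0.49, Msx1 at -0.46, Mecom at -0.37 and Osr1 at -0.36, so that 1 of the 8 genes was at least 1.5-fold lower, against 0.537% of all transcripts on this scale. On this scale Prrx2 stood at 0.16, Msx2 at 0.70 and Meox2 at 0.99. Prrx2 thus changed sign, and Msx2 and Meox2 became at least 1.5-fold higher, as were 34.4% of all transcripts on this scale. This scale was chosen after the data had been seen.

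**Figure D5:**
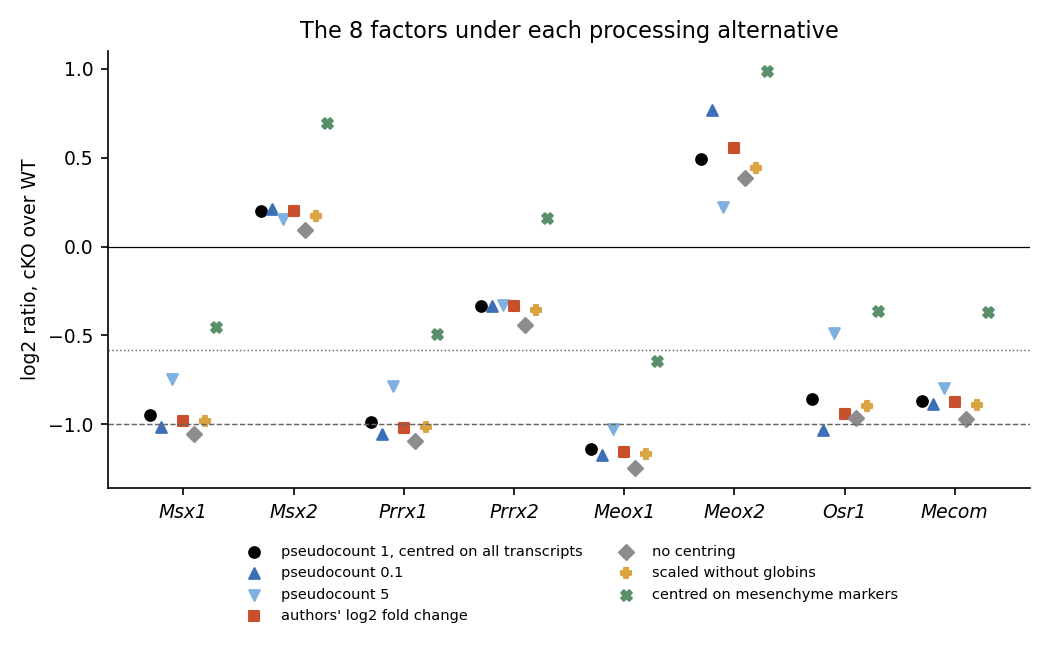
Log2 ratio of cKO over WT of each of the 8 genes under 7 ways of computing it (symbols), with a dotted line at 1.5-fold lower and a dashed line at 2-fold lower. Msx1, Prrx1, Meox1, Osr1 and Mecom are below 0 in each, Msx2 and Meox2 above 0 in each, and Prrx2 is above 0 only when set against mesenchyme markers.

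The authors' deposited table gave log2 fold changes of -1.16 for Meox1, -1.02 for Prrx1, -0.99 for Msx1, -0.95 for Osr1, -0.88 for Mecom, -0.34 for Prrx2, 0.20 for Msx2 and 0.55 for Meox2. These stand in the same order as the ratios above, except that Osr1 comes before Mecom.

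The protein-coding genes with the most similar pair of values were sought for each factor, by the distance between log2 values over the 2 genotypes. With only 2 values per gene, such likeness says little. Scube1, at 19.7 nFPKM in WT and 8.71 nFPKM in cKO, was nearest to both Msx1 (distance 0.06) and Prrx1 (0.15). Sfrp2, at 53.7 and 18.5 nFPKM, was nearest to Meox1 (0.17), Kctd12, at 46.7 and 23.8 nFPKM, to Mecom (0.14) and Tomt, at 6.72 and 3.05 nFPKM, to Osr1 (0.07). Within a distance of 0.25, there were 3 genes around Meox1, 5 around Msx1, 7 each around Prrx1 and Mecom and 24 around Osr1. As close to Prrx2 lay 351 genes, to Msx2 447 and to Meox2 97. These counts come from the same 2 values as the ratios. They are low where few genes have such a ratio at that level, and add nothing to the ratios above.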

How the data were processed

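RNA-seq values of 2 groups, WT and Sox9 cKO AVC, were used. The authors deposited 1 table with an FPKM value per transcript and genotype, normalized further by them (nFPKM) and merged over duplicate libraries, per the file headers. It also holds the authors' log2 fold change. TopHat2, Cufflinks, edgeR and mm9 are named, without roles, in the submitters' processing notes. How nFPKM was made from FPKM is not stated. The sum was 961487 for WT and 960481 for cKO, with no value at 0. Read depth is unknown, and no interval could be given.

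Log2 ratios used a pseudocount of 1 nFPKM, for those transcripts that reached 1 nFPKM in WT or cKO (904 were left out), relative to their median. A gene with several rows was represented by the row highest in WT. With 1 value per genotype, sizes of 2-fold and 1.5-fold were used in place of a test. The genes and lists were chosen with earlier results of these data known. Named genes were the 8 factors, Sox9, Prdm16, the nearest genes of each factor and at most 4 genes per list with the largest absolute ratio and at least 3 nFPKM; 1 gene that this rule names is not reported here. The 2 core motifs marked in the promoters and the comparison with other pairs of genes were added later. Peaks near the genes and protein sequences were planned and not run. Alternatives were other pseudocounts, filters, scalings and row sums. The steps were tested on simulated data with Python 3.11.15, numpy 2.4.6 and pandas 2.3.3.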

Additional observations from a re-analysis of the deposited data

How the results depend on the processing

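No paired analysis was possible because each genotype has 1 merged value, and leaving out a library was not possible for the same reason. Of 56 recomputed ratios of the 8 genes, 48 stayed on their side of the 2-fold rule. With a pseudocount of 0.1, Msx1 (-1.02), Prrx1 (-1.05) and Osr1 (-1.04) were 2-fold lower. Without centring Msx1 (-1.06) and Prrx1 (-1.10) were, and Prrx1 also in the authors' log2 fold change (-1.02) and after scaling without globins (-1.02). Set against mesenchyme markers, chosen after seeing the data, Meox1 (-0.65) no longer was, and Prrx2 (0.16) changed sign. Counts of the 8 genes are given with those over all 13793 transcripts in brackets. At least 2-fold lower was 1 as reported (93), 4 with a pseudocount of 0.1 (261) and 3 without centring (135). It was 2 in the authors' values (165) and 0 against mesenchyme markers (24). After scaling without globins it was 2, and all transcripts were not counted on that scale. The number at least 1.5-fold lower, 5 as reported (389), was 4 with a pseudocount of 5 (134), where Osr1 stood at -0.49. It was 1 against mesenchyme markers (74). The number at least 1.5-fold higher, 0 as reported (475), was 1 with a pseudocount of 0.1 (662) and 2 against mesenchyme markers (4744). The pair difference of Msx1 and Msx2 was -0.90 with a pseudocount of 5, under the 2-fold size. It ranged from -1.23 to -0.90 over all alternatives, that of Prrx1 and Prrx2 from -0.72 to -0.46 and that of Meox1 and Meox2 from -1.94 to -1.25. Of all transcripts, 93 were 2-fold lower, against 261 with a pseudocount of 0.1, 36 with 5, 165 in the authors' values and 24 against mesenchyme markers. The 115 that were 2-fold higher became 235 with 0.1, 45 with 5 and 656 against mesenchyme markers. At 1.5-fold, 389 lower ones became 680 with 0.1, 134 with 5, 623 without centring and 74 against mesenchyme markers, and 475 higher ones became 181 with 5, 316 without centring and 4744 against mesenchyme markers. The median of erythroid markers was 0.96 with a pseudocount of 5 and 0.998 without centring, under the 2-fold size, and 71 other recomputed list medians stayed on their side of it. The pseudocount moved Meox2 and Osr1 most, from 0.22 to 0.77 and from -1.04 to -0.49.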
